A study of Mus musculus with 114 samples.

Results

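The neuronal pentraxins are a family of 3 genes, Nptx1, Nptx2 and Nptxr, and all 3 were found among the 13101 gene identifiers of a count table from mouse prefrontal cortex. They were chosen by symbol, and the choice was made from earlier results on these libraries: Nptx1 had one of the clearest daily profiles outside the clock genes in the PV-titled libraries, and Nptx2 and Nptxr were taken with it as its family. The level in PV-titled against C-titled libraries and the profile over the day are therefore described here, with errors. Where calls over all genes are given for them, nothing is read from those. Tests are given for sex, which played no role in the choice, and for the relations between the 3 genes. Those relations were tested with the daily profile, by which Nptx1 was chosen, still in the values.

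Neuronal pentraxins are extracellular proteins of excitatory synapses. NPTX1 and NPTX2 are secreted, while NPTXR, the neuronal pentraxin receptor, is anchored in the membrane, and the 3 proteins assemble into mixed complexes that bind and cluster AMPA-type glutamate receptors. Nptx2, also known as Narp, is an immediate early gene of neuronal activity, and its protein is known to be released by excitatory neurons and to gather at excitatory synapses on parvalbumin (PV) interneurons, where the perineuronal net helps to hold it. NPTXR can be shed from the membrane by the protease ADAM17.

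RNA on haemagglutinin-tagged ribosomes was pulled down from Ribo-tag mice, in which the tag is switched on in 1 cell type, and sequenced at 6 zeitgeber times (ZT, in h, with lights on at ZT0), spaced 4 h apart, the earliest being ZT2 and the latest ZT22. The 55 libraries titled PV came from 28 female and 27 male samples and the 58 titled C from 29 and 29, with 8 to 10 PV-titled and 9 to 10 C-titled libraries at each time. The labels give neither the driver of the tag, nor age or strain, nor whether each library is a separate animal, so the spread between libraries may be partly technical. In each library the title and the labelled cell type contradict each other, and the title is used here. Parvalbumin itself (Pvalb) had a mean of 38.9 ± 18.5 CPM (TMM-scaled counts per megacount of the library; SD, n = 55) in PV-titled libraries, against 1.07 ± 0.918 CPM (n = 58) in C-titled ones. Gad1, the GABA-synthesising enzyme, had 416 ± 113 and 26.4 ± 14.5 CPM. Slc17a7, the vesicular glutamate transporter of pyramidal neurons, had 721 ± 288.9 and 1710.1 ± 555 CPM. These markers went with the titles. Pyramidal marker RNA was thus measured in PV-titled libraries as well, where the mean of Slc17a7 was above that of Gad1.

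Libraries titled PV held 19.1 to 39.5 M counts on genes (M, megacounts), and those titled C 24.6 to 44.1 M. Behind the rarest of the 3 genes, Nptx2, stood 29 to 1117 counts in PV-titled libraries and 606 to 3194 in those titled C. Library numbers in the titles form 2 ranges, a first (26 PV-titled, 29 C-titled) and a second (29 and 29), and both ranges entered every fit as a term. Finally, 8 libraries correlated far less well than the rest with libraries of the same prefix: 3 PV-titled (ZT10, ZT14 and ZT22; median r 0.819 to 0.862, against 0.941 over all PV-titled) and 5 C-titled (all at ZT2 or ZT6; 0.883 to 0.943, against 0.979). Nptxr averaged 180 CPM in the 3 PV-titled libraries that stand apart and 474 CPM in the other 52. It averaged 661 CPM in the 5 C-titled ones and 1209 CPM in the other 53, and Nptx1 averaged 190.5 and 370.4 CPM in the same sets. A digit after the prefix in the titles divides the libraries into 5 sets whose meaning the labels do not give, and 3 of the 5 C-titled libraries that stand apart carry the digit 3. Of the 3 PV-titled ones 2 carry the digit 1. Values that these libraries change are given with and without them.

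The genes lie on 3 chromosomes of GRCm38. Nptx1 (ENSMUSG00000025582) is on the minus strand of chromosome 11, 119538719 to 119547753, with 5217 exonic bases. Nptx2 (ENSMUSG00000059991) is on the plus strand of chromosome 5, 144545902 to 144557478, with 2536 exonic bases. Nptxr (ENSMUSG00000022421) is on the minus strand of chromosome 15, 79786351 to 79804766, with 5170 exonic bases. Of these Nptxr bases, 890 (17.2%) are shared with Npcd, a read-through gene annotated from 79789675 to 79834237 on the same strand that joins exons of Nptxr and of Cbx6. Npcd is not a row of the table, and reads in the shared exons cannot be divided between it and Nptxr, so the Nptxr counts carry that uncertainty.

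All 3 pentraxins were lower in the libraries titled PV than in those titled C, by fitted factors of 2.58 (Nptxr), 3.06 (Nptx1) and 3.40 (Nptx2). In pull-downs of whole tissue, fewer cells of a type and less RNA per cell cannot be told apart. Nptx1 ran from 46.7 through a median of 115 to 270.3 CPM in PV-titled libraries, and from 149.4 through 350.2 to 546 CPM in C-titled libraries. Its mean was 121 ± 49.4 CPM (SD, n = 55) and 355 ± 100 CPM (n = 58), a fitted log2 difference of -1.61 (SE 0.07). All 55 PV-titled libraries lay below the C-titled median, and at each of the 6 times the highest PV-titled library was below the lowest C-titled one. How many of all genes separate likewise was not counted. Such counts, here and for Nptx2 and Nptxr below, only describe the members, and nothing is read from them.

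Nptx2, the activity-induced member, ran from 1.98 through 13.6 to 35.9 CPM in PV-titled libraries and from 24.7 through 41.7 to 80.1 CPM in those titled C. The means were 13.9 ± 6.51 and 47.0 ± 13.9 CPM, with a log2 difference of -1.77 (SE 0.10). At 5 of the 6 times the prefixes did not overlap. The exception was ZT18, where 1 PV-titled library reached 35.9 CPM and the lowest C-titled library had 32.4 CPM.

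Nptxr, the membrane-bound member, ran from 89.9 through 465 to 746 CPM in PV-titled libraries and from 330.7 through 1195 to 1874 CPM in those titled C. The means were 458 ± 146.7 and 1162 ± 360.0 CPM, with a log2 difference of -1.37 (SE 0.09). Its groups overlapped most: at only 2 of the 6 times, ZT10 and ZT14, did every PV-titled library lie below every C-titled one. That held at 4 of the 6, with ZT2 and ZT6 added, once the libraries that stand apart were left out. Nptxr was also the member that differed between number ranges, with 380.4 ± 146.4 CPM in the first range (n = 26) and 528 ± 108 CPM in the second (n = 29) of PV-titled libraries, a log2 difference, second minus first, of 0.44 (95% interval 0.20 to 0.69). In C-titled libraries the same difference was 0.02 (95% interval -0.24 to 0.27). Within the ranges the log2 difference of Nptxr between PV-titled and C-titled libraries was -1.61 in the first and -1.15 in the second, against -1.71 and -1.51 for Nptx1 and -1.84 and -1.69 for Nptx2.

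**Figure D1:**
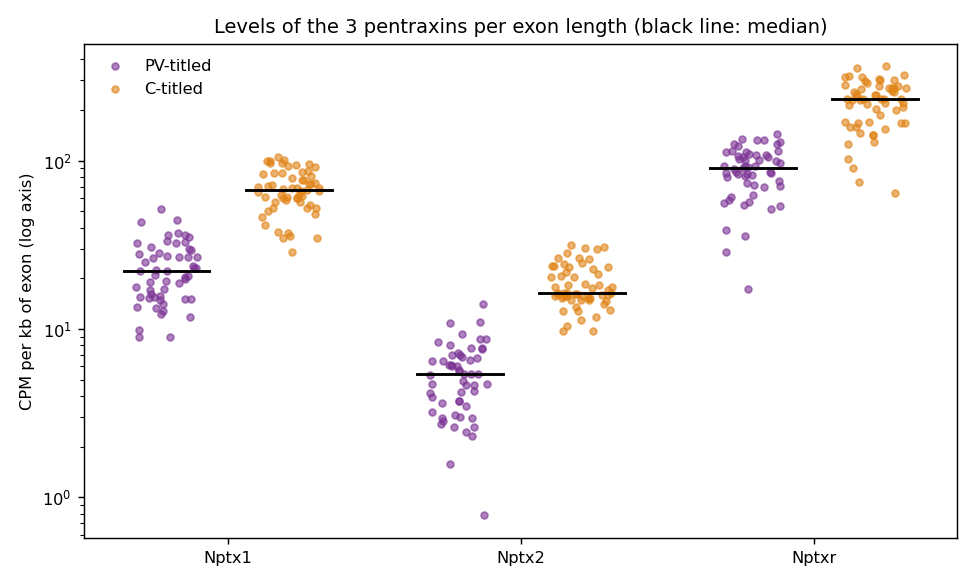
CPM per kb of exon (log axis) in each PV-titled (purple, n = 55) and C-titled (orange, n = 58) library for the 3 pentraxins, with the median as a black line. For each gene the PV-titled cloud lies lower, and in both prefixes Nptxr is highest and Nptx2 lowest, with median levels of 89.9, 22.1 and 5.37 CPM per kb for Nptxr, Nptx1 and Nptx2 in PV-titled libraries and 231.2, 67.1 and 16.4 in those titled C.

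As background, by edgeR's quasi-likelihood test with Benjamini-Hochberg adjustment over all genes, 3 of 3 members passed as different between prefixes, where 87.5% of the 13053 genes tested did. All 3 passed in the downward direction, as did 43.2% of genes (44.3% passed upwards), and all 3 passed a test for a change beyond 2-fold downwards, as did 4.54%. The contrast was part of what the genes were chosen on, and nothing is read from these counts. The median log2 difference over all genes was 0.01. For scale, pyramidal marker genes had log2 differences of -1.63 (Sv2b, a synaptic vesicle protein), -1.48 (Nrgn, neurogranin) and -0.89 (Neurod6, a transcription factor), and Slc17a7 had -1.31. Over all 12 pyramidal markers the median log2 difference was -0.79, a smaller fall than in the markers just named. Of the 12, 9 were lower and 1 higher in PV-titled libraries. Their summed level ranged from 1584 to 3869 CPM in PV-titled libraries and from 3923 to 7952 CPM in those titled C. Slc17a7 ran from 43.9 to 1232 CPM over the PV-titled libraries. How much of the pentraxin reads in PV-titled libraries came from pyramidal RNA was not tested. All astrocyte (10 of 10), oligodendrocyte (7 of 7), microglia (10 of 10) and endothelial or mural (8 of 8) markers tested were higher in PV-titled libraries, with median log2 differences of 2.04, 2.21, 2.33 and 2.51. Of 9 markers of other interneurons 7 were higher and 2 lower in PV-titled libraries, with a median log2 difference of 2.28. The part of all these cells in the lower pentraxin levels was not tested.

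Per exon length the order of the family was the same in every library. Nptxr lay above Nptx1 and Nptx1 above Nptx2 in 55 of 55 PV-titled and in 58 of 58 C-titled libraries. The ratio of Nptxr to Nptx1 per kb had a median of 3.86 (1.12 to 8.58) in PV-titled libraries and 3.35 (1.19 to 6.16) in those titled C. The ratio of Nptx1 to Nptx2 per kb had a median of 4.19 (1.23 to 19.9) and 3.76 (1.56 to 7.07). By mean CPM per kb, Nptxr lay above 97.1% of the 13051 genes with a length in PV-titled libraries and above 98.6% in those titled C. Nptx1 lay above 82.3% and 93.1%, and Nptx2 above 39.7% and 74.2%.

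Nptx1, a secreted member, had the clearest profile over the day, lowest at ZT6 and ZT10 and highest at ZT18 and ZT22 in both prefixes. In PV-titled libraries it had a median of 111 CPM (88.4 to 145.1) at ZT2, 73.1 (46.7 to 103) at ZT6 and 82.3 (51.7 to 121) at ZT10. The dark-phase medians were 119 CPM (61.4 to 168.2) at ZT14, 140.1 (92.3 to 192.6) at ZT18 and 186.9 (98.7 to 270.3) at ZT22. The mean at ZT22 was 2.59 times that at ZT6, and 9 of 10 libraries at ZT22 were above all 9 at ZT6. Between neighbours in the order of the means (ZT22, ZT18, ZT14, ZT2, ZT10, ZT6), the gap was larger than the pooled SD only between ZT2 and ZT10, by 29.0 against 21.5 CPM.

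In C-titled libraries Nptx1 had a median of 356 CPM (149.4 to 483) at ZT2, 303.6 (180.8 to 399.6) at ZT6 and 271.4 (185.1 to 440.0) at ZT10. After lights off the medians were 334 CPM (274.4 to 452) at ZT14, 449 (317.2 to 546) at ZT18 and 458 (273.7 to 525) at ZT22. The order of the means was ZT18, ZT22, ZT14, ZT2, ZT6 and ZT10, and the gap beyond the pooled SD lay between ZT22 and ZT14 (89.5 against 71.4 CPM). Without the libraries that stand apart the order was ZT18, ZT22, ZT2, ZT14, ZT6 and ZT10, and no gap was beyond the pooled SD, with 58.1 against 73.6 CPM between ZT22 and ZT2. The mean at ZT18 was 1.57 times that at ZT10, and 5 of 9 libraries at ZT18 were above all 9 at ZT10. The 2 lowest libraries at ZT2 and the 3 lowest at ZT6 are those that stand apart. Without them the lowest library had 297.2 CPM at ZT2 and 251 CPM at ZT6.

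**Figure D2:**
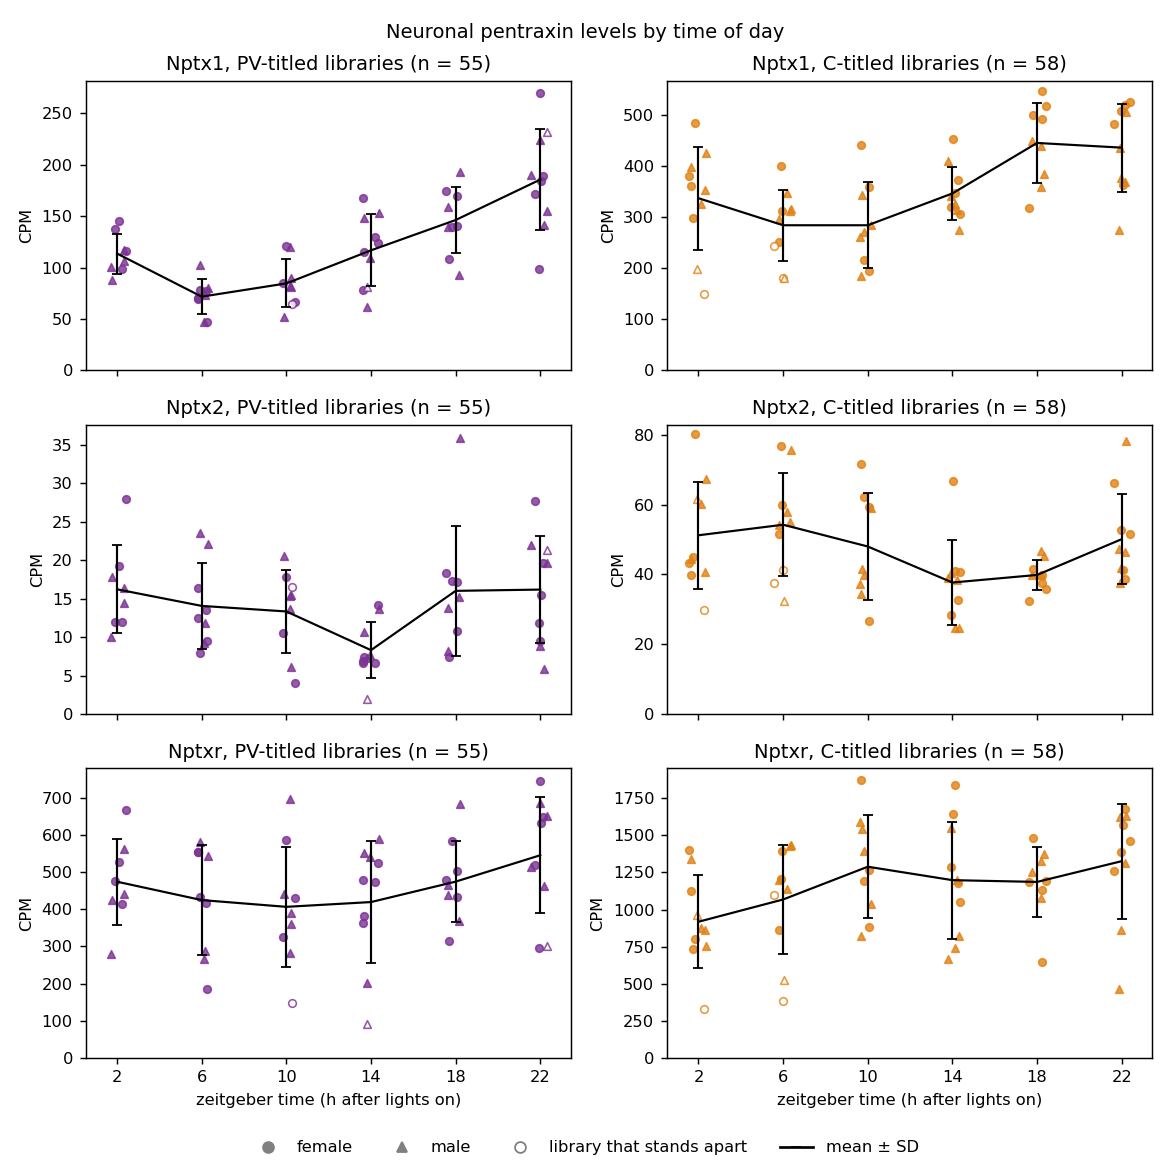
CPM of Nptx1, Nptx2 and Nptxr in every library against zeitgeber time (h), PV-titled left (purple) and C-titled right (orange), with mean ± SD at each time in black, circles for females, triangles for males and open symbols for the libraries that stand apart. Nptx1 is highest at ZT18 to ZT22 in both columns, Nptx2 is lowest at ZT14 in both, and Nptxr shows wide spread at every time; axes differ between panels.

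A 24 h cosine put the peak of Nptx1 at ZT19.97 (SE 0.44 h) in PV-titled libraries and at ZT19.83 (SE 0.66 h) in those titled C. The amplitude, the log2 distance from mean to peak, was 0.63 (95% interval 0.49 to 0.77) in PV-titled libraries and 0.37 (0.24 to 0.50) in those titled C, which correspond to a 2.39-fold and a 1.67-fold change between trough and peak. The peak times differed by 0.13 h, PV-titled minus C-titled (95% interval -1.47 to 1.73). The amplitude was larger in PV-titled libraries by 0.26 (95% interval 0.07 to 0.45). It was 0.17 without replicate 1 of each group (95% interval -0.04 to 0.38) and 0.20 in females alone (-0.08 to 0.47). Nor did it stand equally in both number ranges. In the first range the amplitudes were 0.66 in PV-titled libraries and 0.23 in those titled C, a difference of 0.44 (95% interval 0.13 to 0.74). In the second they were 0.60 and 0.55, a difference of 0.05 (-0.17 to 0.26). The PV-titled amplitude was thus alike in both ranges, while the C-titled one changed from range to range.

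Marker RNA in the PV-titled libraries was also set out over the day. The summed pyramidal markers there had medians of 2512, 2325, 2513, 2305, 2916 and 3198 CPM from ZT2 to ZT22. Their SD at single times lay between 410 and 647 CPM. They were highest at ZT22, as Nptx1 was, but lowest at ZT14, where Nptx1 was above its level at ZT6 and ZT10. The summed PV interneuron markers were lowest at ZT22, with a median of 516 CPM, against 710.4 CPM at ZT6. The summed GABAergic markers were lowest there too, with 966 CPM, against 1160 CPM at ZT6. Their part in the profile of Nptx1 was not tested. With the log2 ratio of pyramidal to GABAergic markers of each library as a further term, the amplitude of Nptx1 in PV-titled libraries was 0.59 (95% interval 0.45 to 0.74) with its peak at ZT20.0, and in C-titled libraries 0.38 (0.26 to 0.49). Without the libraries that stand apart it was 0.60 in PV-titled libraries and 0.32 in those titled C.

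Nptx2 had its lowest median early in the dark phase, at ZT14, in both prefixes. Its profile was not tested against that of Nptx1. In PV-titled libraries its medians were 15.4 CPM (10.1 to 28.0) at ZT2, 12.5 (7.88 to 23.5) at ZT6 and 15.4 (3.98 to 20.5) at ZT10. They were 7.36 CPM (1.98 to 14.2) at ZT14, 15.2 (7.47 to 35.9) at ZT18 and 17.5 (5.88 to 27.7) at ZT22. The drop at ZT14 was the one step between neighbouring means beyond the pooled SD (5.02 against 4.62 CPM), and without the libraries that stand apart it was not (3.92 against 4.55 CPM). With all libraries 7 of 10 libraries at ZT14 lay below all 8 at ZT2. The lowest value at ZT14 was from a library that stands apart, and the median without it was 7.48 CPM.

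In C-titled libraries Nptx2 had medians of 44.7 CPM (29.8 to 80.1) at ZT2, 54.6 (32.3 to 76.8) at ZT6 and 41.7 (26.5 to 71.6) at ZT10. At ZT14 it had 38.7 CPM (24.7 to 66.7), at ZT18 40.0 (32.4 to 46.6) and at ZT22 46.8 (37.5 to 78.2). The mean was again lowest at ZT14, and the highest mean, at ZT6, was 1.44 times as high. No gap between neighbouring means was larger than the pooled SD, and with all libraries 3 of 10 at ZT14 lay below all 10 at ZT6. Without those that stand apart the mean at ZT6 was 61.6 CPM, and the lowest library there had 51.7 CPM. The gap to the next mean, at ZT2, was then 8.97 CPM, against a pooled SD of 12.8 CPM.

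The fitted amplitude of Nptx2 was 0.36 (95% interval 0.11 to 0.61) in PV-titled libraries and 0.25 (0.11 to 0.39) in those titled C. The fitted peak lay at ZT0.47 (SE 1.33 h) and at ZT3.53 (SE 1.08 h), a difference, PV-titled minus C-titled, of -3.11 h (95% interval -6.71 to 0.48). The amplitude difference was 0.10 (95% interval -0.17 to 0.38). Both intervals hold 0, and they leave room for a peak several hours earlier in PV-titled libraries. Without the libraries that stand apart the amplitudes were 0.34 in PV-titled libraries and 0.32 in those titled C. Their difference was then 0.02 (95% interval -0.25 to 0.29).

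No profile of Nptxr stood out from its spread. In PV-titled libraries the medians ran from 391 CPM at ZT10 to 574 CPM at ZT22, within a range over single libraries of 89.9 to 746 CPM. In C-titled libraries they ran from 869 CPM at ZT2 to 1426 CPM at ZT22, within 330.7 to 1874 CPM. No gap between neighbouring means exceeded the pooled SD in either prefix. The fitted amplitudes were 0.17 (95% interval 0.00 to 0.34) in PV-titled libraries and 0.16 (-0.02 to 0.34) in those titled C, and the fitted peaks, ZT21.2 (SE 2.04 h) and ZT15.7 (SE 2.24 h), carry wide errors. Without the libraries that stand apart, which are at ZT2 and ZT6 in the C-titled set, the C-titled amplitude was 0.06. Other subsets gave larger values, with 0.28 in PV-titled libraries without replicate 2 of each group (95% interval 0.11 to 0.46) and 0.25 in C-titled libraries without replicate 1 (0.05 to 0.45). With a replicate block the PV-titled amplitude was 0.21 (0.05 to 0.38). Nptxr passed the test of the 24 h cosine and sine in 0 of 17 alternative edgeR fits in PV-titled and 0 of 18 in C-titled libraries.

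**Figure D3:**
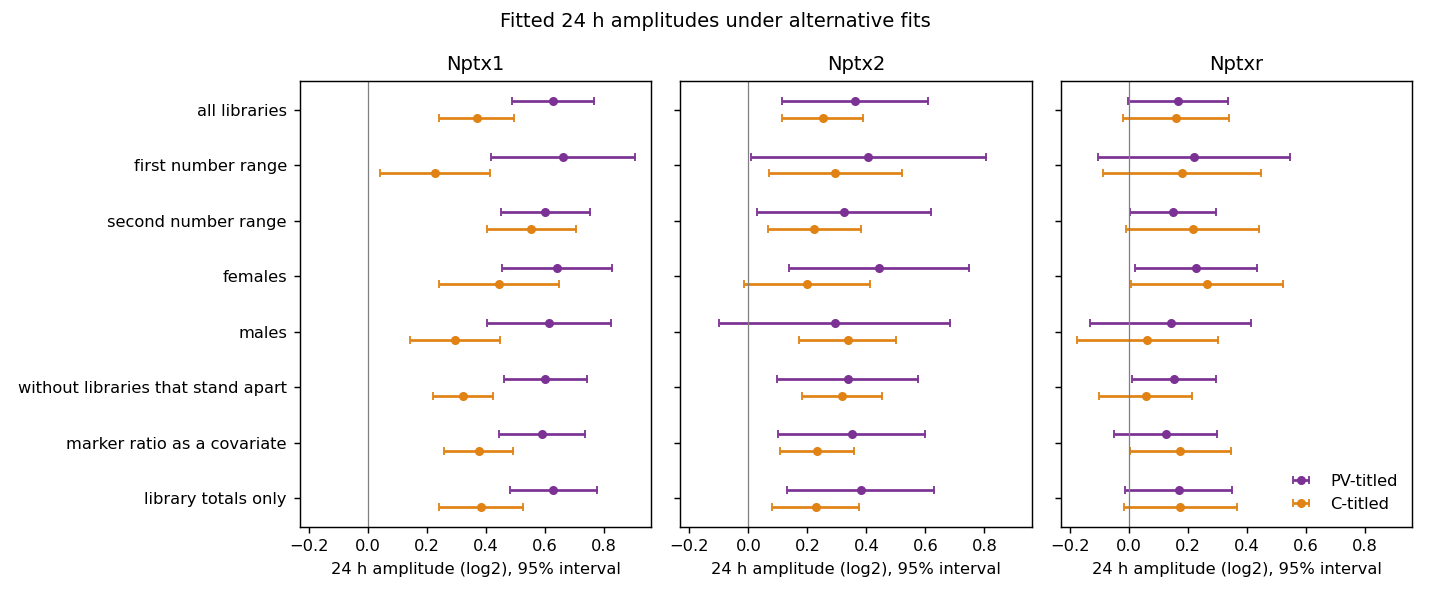
Fitted 24 h amplitude (log2, distance from mean to peak) with its 95% interval for each gene, PV-titled (purple) above C-titled (orange), in all libraries and under 7 alternative fits. The Nptx1 intervals of PV-titled libraries lie at 0.40 or above in all of these, the C-titled amplitude of Nptx1 is 0.23 in the first and 0.55 in the second number range, and the intervals of Nptxr reach close to or across 0.

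In the test of the 24 h cosine and sine over all genes, 1 of 3 members passed in PV-titled libraries, Nptx1, where 3.1% of genes passed. In C-titled libraries 2 of 3 passed, Nptx1 and Nptx2, where 27% of genes did. These profiles chose the genes, so the counts are no separate finding. Of 3 members 0 passed the test for a difference in rhythm between prefixes, which 0.559% of genes passed. The median amplitude over all genes was 0.11 in PV-titled libraries and 0.12 in those titled C. In C-titled libraries the call of Nptx1 was lost in the first range alone and in males alone. That of Nptx2 held there in 9 of 18 alternative edgeR fits. In PV-titled libraries Nptx2 passed in 0 of 17 such fits.

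The ratio of the 2 secreted members changed over the day in both prefixes. It holds the daily profile of Nptx1, by which the genes were chosen, and the times set side by side were picked by their values. Other pairs of genes were not compared in this way, so the ratio is given as a description. Per kb, Nptx1 over Nptx2 had a median of 2.46 (1.76 to 4.84) at ZT6 and 6.85 (4.12 to 19.9) at ZT14 in PV-titled libraries. In C-titled libraries it had 2.60 (2.03 to 3.14) at ZT6 and 5.49 (4.14 to 7.07) at ZT18. In C-titled libraries every library at ZT14 and ZT18, from 3.29 upwards, was above every library at ZT6. In PV-titled libraries the ranges at ZT6 and ZT14 met only between 4.12 and 4.84. The ratio of Nptxr to Nptx1 per kb ran the other way, with medians of 5.72 at ZT6 and 3.07 at ZT22 in PV-titled libraries, and 4.53 at ZT10 and 2.997 at ZT18 in C-titled libraries.

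**Figure D4:**
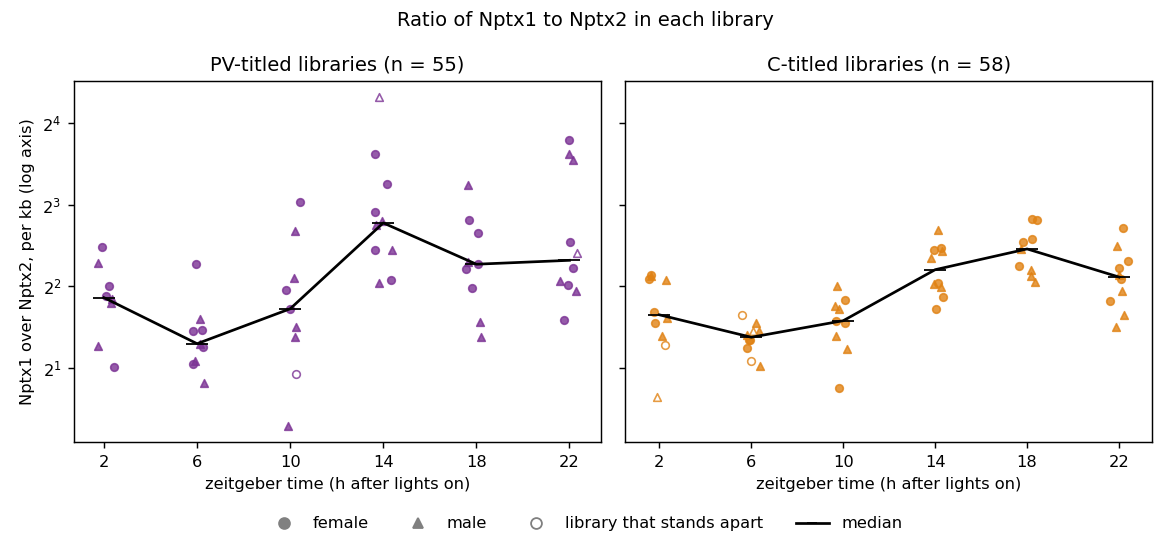
Ratio of Nptx1 to Nptx2, both in CPM per kb, in every library against zeitgeber time (h), on a log axis, PV-titled left and C-titled right, with the median at each time in black. The median is lowest at ZT6 in both prefixes (2.46 and 2.60) and highest at ZT14 in PV-titled (6.85) and at ZT18 in C-titled libraries (5.49).

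No difference between females and males passed the test for any of the 3 genes. The largest difference, female minus male, was that of Nptx2 in PV-titled libraries, with 13.5 ± 5.96 CPM in females (n = 28) and 14.4 ± 7.13 CPM in males (n = 27), a log2 difference of -0.13 (95% interval -0.47 to 0.22, edgeR adjusted p = 1.0). Nptx1 in C-titled libraries averaged 374 ± 116 CPM in females (n = 29) and 336 ± 78.9 CPM in males (n = 29), a log2 difference of 0.12 (95% interval -0.06 to 0.30, edgeR adjusted p = 0.81). The other 4 log2 differences were between 0.02 and 0.07. Of 3 members 0 passed in PV-titled libraries, where 0.0307% of genes did, and 0 passed in C-titled libraries, where 0.184% did. At an unadjusted p under 0.05 the shares were 2.77% and 7.61% of genes.

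The daily profile was also fitted in each sex. Nptx1 in PV-titled libraries had an amplitude of 0.64 (SE 0.10) in females and 0.61 (SE 0.10) in males, with peaks at ZT19.98 and ZT19.96. In C-titled libraries its amplitude was 0.45 (SE 0.09) in females and 0.29 (SE 0.09) in males. For Nptx2 the amplitudes were 0.45 and 0.28 in PV-titled, and 0.20 and 0.34 in C-titled libraries, each with an SE between 0.10 and 0.18. For Nptxr they were 0.22 and 0.14 in PV-titled, and 0.27 and 0.06 in C-titled libraries, with an SE of 0.13 each. By edgeR, 0 of 3 members passed the test of sex by rhythm in PV-titled libraries (0% of genes; 5.42% at an unadjusted p under 0.05), and 0 of 3 in C-titled libraries (0% of genes; 1.34% unadjusted). The lowest adjusted p of a member was 0.98.

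Across libraries Nptxr went with Nptx1, and more loosely with Nptx2. The 3 pairs were compared in each prefix, 6 relations in all, on log2 CPM after removal of the means of sex and range, with two-sided permutation tests of 100000 draws adjusted over the 6. In PV-titled libraries Nptx1 and Nptxr had Pearson r = 0.57 (adjusted permutation p = 6e-05) and Spearman rho = 0.63 (adjusted permutation p = 6e-05), the smallest values these draws can give. The relation was as large without the 2 libraries farthest out on Nptx1 (r = 0.60), without those that stand apart (r = 0.66), in the first range (r = 0.60), in the second (r = 0.56) and after the 24 h fit was removed (r = 0.61). In C-titled libraries the same pair had r = 0.52 (adjusted permutation p = 0.00012) and rho = 0.38 (adjusted permutation p = 0.00838). There it rested largely on a few libraries: r was 0.34 without the 2 farthest out, 0.25 without those that stand apart, 0.79 in the first range and 0.26 in the second.

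Nptx2 and Nptxr had r = 0.51 (adjusted permutation p = 0.00024) and rho = 0.40 (adjusted permutation p = 0.00838) in PV-titled libraries. The value of r was 0.33 without the 2 libraries farthest out on Nptx2, 0.62 in the first range and 0.28 in the second. In C-titled libraries r was 0.28 (adjusted permutation p = 0.037) and rho 0.27 (adjusted permutation p = 0.0667), with r = 0.31 without the 2 farthest out, r = 0.44 in the first range and r = 0.01 in the second. Without the libraries that stand apart r was 0.45 in PV-titled libraries and 0.19 in those titled C. With all PV-titled libraries Nptxr ranked 130 of 10741 genes by r with Nptx2, and Nptx2 ranked 1075 with Nptxr. In C-titled libraries the ranks were 1417 and 2293 of 9783.

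Nptx1 and Nptx2 were the loosest pair in PV-titled libraries, and in those titled C they were about as loose as Nptx2 and Nptxr. In PV-titled libraries r was 0.25 (adjusted permutation p = 0.0599) and rho 0.23 (adjusted permutation p = 0.0857), with r = 0.26 without the 2 farthest out. It was 0.40 in the first range and 0.04 in the second. In C-titled libraries r was 0.30 (adjusted permutation p = 0.0345) and rho 0.24 (adjusted permutation p = 0.0857), with r = 0.24 without the 2 farthest out, 0.42 in the first range and 0.17 in the second. After the 24 h fit was removed from both genes, r was 0.27 in PV-titled libraries and 0.57 in those titled C. Both values include the libraries that stand apart and were not computed without them, so nothing further is read from them. With the daily profile kept, r without those libraries was 0.24 in PV-titled libraries and 0.25 in those titled C. With all PV-titled libraries Nptx2 ranked 2395 of 10741 genes by r with Nptx1, and Nptx1 ranked 1793 with Nptx2. In C-titled libraries the ranks were 2780 and 1261 of 9783. The ratio of pyramidal to GABAergic markers varied with the pentraxins too. Without the libraries that stand apart, its r was 0.48 with Nptx1, 0.16 with Nptx2 and 0.42 with Nptxr in PV-titled libraries, and 0.37, 0.44 and 0.40 in C-titled libraries. Its part in these relations was not tested.

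**Figure D5:**
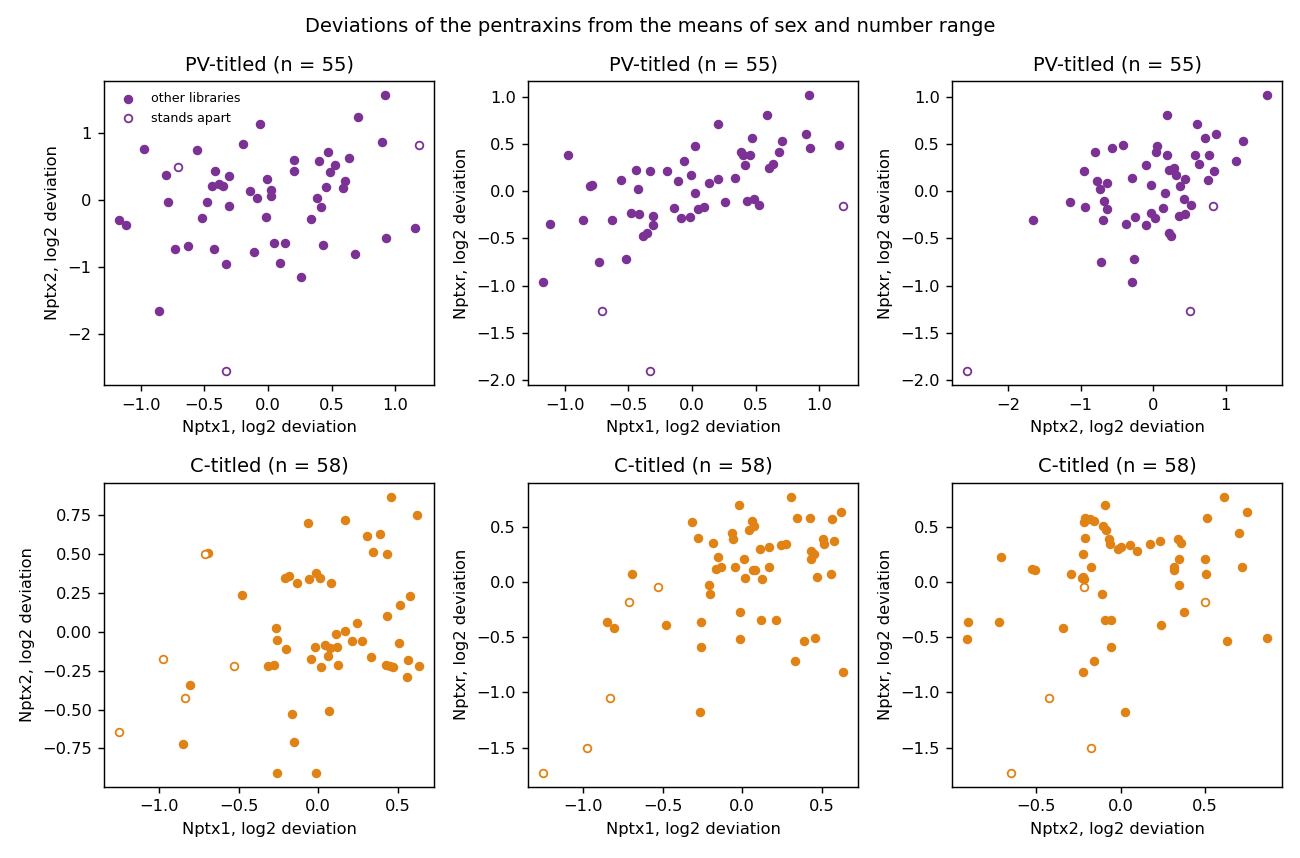
Log2 deviations of the 3 pairs of pentraxins from the means of sex and number range, 1 point a library, PV-titled above (n = 55) and C-titled below (n = 58), with open symbols for libraries that stand apart. Nptx1 and Nptxr lie along a line in the PV-titled panel (r = 0.57), while in the C-titled panel the 3 lowest open symbols lie far from the cloud (r = 0.52 with all libraries and 0.25 without the 5 that stand apart).

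Each member had its own set of most alike genes, taken as the 5 highest Pearson correlations over the libraries of a prefix, and no other pentraxin was among them. In PV-titled libraries (n = 55; 10741 candidate genes) Nptx1 was most like Castor2, a relative of the arginine sensor of the mTORC1 pathway (r = 0.82), and the set also held Trp53i11 (0.80), Sirpa, a membrane receptor of neurons and myeloid cells (0.79), and Sez6l (0.77). In C-titled libraries (n = 58; 9783 candidates) it was most like Lzts3, a postsynaptic protein (r = 0.90), then Tef, a clock output transcription factor (0.89), Snph, syntaphilin, which anchors axonal mitochondria (0.88), Jup, plakoglobin (0.87), and Zdhhc9, a palmitoyltransferase (0.87). Without the libraries that stand apart 3 of 5 in PV-titled libraries and 2 of 5 in those titled C were shared with these sets.

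Nptx2 was most like Ppp1r37 (r = 0.67), Lingo1 (0.67), Cx3cl1, the chemokine fractalkine (0.65), Vgf, an activity-regulated secreted neuropeptide precursor (0.65), and Cdkn1a, a cell cycle inhibitor (0.64), in PV-titled libraries. In C-titled libraries it was most like Cdkn1a (0.74), Sorcs3, a sorting receptor (0.68), Ptgs2, cyclooxygenase 2, which neuronal activity induces (0.68), Fscn1, the actin bundler fascin (0.65), and Fmnl1, a formin (0.65). Without the libraries that stand apart 0 of 5 in PV-titled libraries and 2 of 5 in those titled C were shared, and Bdnf, the activity-regulated neurotrophin, was then among the 5 in both prefixes, with r = 0.63 and 0.72.

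Nptxr was most like Kcnc4, a Kv3 potassium channel subunit (r = 0.93), Mef2d, a transcription factor (0.91), Mink1, a kinase (0.91), Cbx6, a Polycomb protein (0.90), and Phyhip (0.90), in PV-titled libraries. Cbx6 (79823896 to 79834688 on chromosome 15) is the gene that Npcd joins to Nptxr, and 563 of its exonic bases are shared with Npcd. In C-titled libraries Nptxr was most like Cnnm1 (0.90), Dgkz, diacylglycerol kinase zeta (0.90), Fam171a2 (0.88), Asic1, an acid-sensing channel (0.88), and Gsk3a, a kinase (0.88). In each prefix 4 of 5 were shared when the libraries that stand apart were left out. Correlations of this size over libraries also carry library quality, depth and the mix of cells, and they are given as descriptions.

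Of 14 AMPA receptor and auxiliary subunit genes tested, 5 were higher and 6 lower in PV-titled libraries, where 44.3% of all genes were higher and 43.2% lower. Their median log2 difference was 0.04, against 0.01 over all genes. Cacng3, an auxiliary TARP subunit, fell by 1.2 (SE 0.05, edgeR adjusted p = 4.48e-42), Gria2, the subunit that sets calcium permeability, by 0.47 (SE 0.03, edgeR adjusted p = 2.31e-27), and Cnih3, a cornichon, by 0.61 (SE 0.05, edgeR adjusted p = 2.44e-23), all in log2. None of the 14 passed for rhythm in PV-titled libraries, where 3.1% of all genes did. In C-titled libraries, where 27% did, 3 of 14 passed, Gsg1l (amplitude 0.19, peak ZT19.0), Gria1 (0.10, ZT1.45) and Cacng8 (0.37, ZT6.06), with edgeR adjusted p of 0.0153, 0.0162 and 0.0196.

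Other secreted synaptic organisers and their receptors were lower in PV-titled libraries in 13 of 18 cases and higher in 3 (43.2% and 44.3% of all genes), with a median log2 difference of -0.43. C1ql3, a C1q-like organiser, fell by 1.31 (SE 0.05, edgeR adjusted p = 5.54e-46), and Olfm2, an olfactomedin, by 1.59 (SE 0.07, edgeR adjusted p = 1.01e-43). Lgi4 was higher by 1.71 (SE 0.08, edgeR adjusted p = 3.33e-40). In rhythm 1 of 18 passed in PV-titled libraries (3.1% of all genes), Lgi4 (amplitude 0.25, peak ZT2.45, edgeR adjusted p = 0.0443). In C-titled libraries 8 passed (27% of all genes), led by Olfm3 (0.35, ZT0.65, edgeR adjusted p = 0.00219), Lgi2 (0.30, ZT9.77, edgeR adjusted p = 0.00332) and Nrxn3, a neurexin (0.16, ZT6.76, edgeR adjusted p = 0.0106).

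Of 6 proteases of the shedding list 3 were higher and 2 lower in PV-titled libraries (44.3% and 43.2% of all genes), with a median log2 difference of 0.18. Adam17, the protease that sheds NPTXR, was higher by 1.36 (SE 0.08, edgeR adjusted p = 3.57e-31) and Mmp14 by 2.48 (SE 0.13, edgeR adjusted p = 6.06e-35), while Mmp17 fell by 1.07 (SE 0.06, edgeR adjusted p = 1.37e-32). None was rhythmic in PV-titled libraries (3.1% of all genes), and 1 was in C-titled libraries (27% of all genes), Adam10 (amplitude 0.46, peak ZT4.50, edgeR adjusted p = 0.021). Of 8 perineuronal net and matrix genes 5 were higher and 2 lower in PV-titled libraries (44.3% and 43.2% of all genes), with a median log2 difference of 2.52. Bcan, brevican, was higher by 2.53 (SE 0.08, edgeR adjusted p = 7.96e-58), Ptprz1, a receptor phosphatase of the net, by 2.51 (SE 0.08, edgeR adjusted p = 6.04e-56) and Hapln1, a link protein, by 2.98 (SE 0.13, edgeR adjusted p = 2.4e-42). Glia also make these 3. The part of glial and vascular RNA, whose markers were higher in PV-titled libraries as given above, was not tested. The same holds for Adam17 and Mmp14. In rhythm 0 of 8 passed in PV-titled libraries (3.1% of all genes) and 1 in those titled C (27%), Tnr, tenascin-R (amplitude 0.13, peak ZT24.0, edgeR adjusted p = 0.00849).

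Activity-regulated genes, the class to which Nptx2 belongs, were mostly lower in PV-titled libraries. Of 18 genes 13 were lower and 1 higher (43.2% and 44.3% of all genes), with a median log2 difference of -0.51. Vgf fell by 1.67 (SE 0.12, edgeR adjusted p = 3.44e-26), Bdnf by 1.53 (SE 0.07, edgeR adjusted p = 4.91e-42) and Scg2, a granin, by 1.02 (SE 0.06, edgeR adjusted p = 1.25e-34). In PV-titled libraries 6 of 18 passed for rhythm (3.1% of all genes), all with a peak between ZT12 and ZT24, as had 58.4% of all genes that passed. They were led by Homer1, a postsynaptic scaffold (amplitude 0.36, peak ZT21.7, edgeR adjusted p = 0.000195), Nr4a1, a nuclear receptor (0.52, ZT19.5, edgeR adjusted p = 0.000341), and Arc, a regulator of AMPA receptor uptake (0.99, ZT18.3, edgeR adjusted p = 0.000396).

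In C-titled libraries 14 of the 18 activity-regulated genes passed for rhythm (27% of all genes). Of these 11 had a peak between ZT12 and ZT24, as had 41.6% of all genes that passed, and 3 between ZT0 and ZT12. Arc peaked at ZT16.2 (amplitude 1.02, edgeR adjusted p = 0.000183), Homer1 at ZT22.6 (0.26, edgeR adjusted p = 0.000402) and Fosl2, a transcription factor of the AP-1 family, at ZT1.37 (0.47, edgeR adjusted p = 0.000261). The 2 windows meet at ZT0, and the peaks ran across it, with Fosb at ZT23.3, Inhba at ZT1.05 and Bdnf at ZT2.51. The windows thus do not mark separate groups. The fitted peak of Nptx2 in C-titled libraries, ZT3.53, fell in the window of those 3, and its call held in 9 of 18 alternative edgeR fits. The peak of Nptx1, near ZT20 in both prefixes, fell in the window of the larger group.

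Of 19 core clock genes 12 passed for rhythm in PV-titled libraries (3.1% of all genes) and 17 in those titled C (27%). In PV-titled libraries all 12 peaked between ZT12 and ZT24, and their largest, Ciart, a clock repressor, had an amplitude of 0.93 (peak ZT12.4, edgeR adjusted p = 1.97e-13). Per2, a clock repressor whose peak is later, had an amplitude of 0.65 with its peak at ZT17.9 (edgeR adjusted p = 9.94e-07), and Dbp, a clock output factor, one of 0.64 at ZT13.5 (edgeR adjusted p = 2.31e-12). In C-titled libraries Dbp had an amplitude of 0.76 at ZT15.0 (edgeR adjusted p = 2.27e-20), Ciart 0.91 at ZT13.2 (edgeR adjusted p = 2.74e-19) and Nr1d1, the REV-ERB alpha repressor, 0.42 at ZT12.4 (edgeR adjusted p = 7.49e-11). The amplitude of Nptx1 in PV-titled libraries, 0.63, was thus of the size of those of Per2 and Dbp there, with a later peak (ZT19.97).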

How the data were processed

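Ribosome-bound RNA was sequenced with SMART-seq HT and Nextera Flex, per the labels' protocols. The authors deposited whole-number counts per gene; FastQC, HTSeq, DESeq2 and GRCm38 are named in the submitters' processing notes, without versions, and the aligner and annotation used were not stated there. Of 114 libraries 113 were used; 1 column whose name disagrees in sex with its title was left out. Reads on no gene made up 55.5% to 67.7% of counts in PV-titled and 51.9% to 59.4% in C-titled libraries, and were excluded. Of 13101 identifiers 13051 had a symbol in GENCODE vM21. No library was a copy of another of its group (lowest chi-square per gene 14.0).

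Tests used R 4.3.3 and edgeR 4.0.16 (TMM, filterByExpr, quasi-likelihood F tests, Benjamini-Hochberg over all genes, threshold 0.05). The prefix fit had time, sex and range as terms, the rhythm fits a 24 h cosine and sine, sex and range. Scripts were tested on simulated counts. CPM per kb used the union of exons. Libraries more than 5 scaled median absolute deviations below the median correlation of their prefix stand apart. Members and gene lists were chosen with earlier results of these data known. Of other genes, the text names the 3 of smallest p per list and contrast, the 5 most alike by log2 CPM (prior count 2, mean CPM of at least 10), and Pvalb, Gad1 and Slc17a7; other genes and values named beside these were chosen after their values were seen. Of the 5 genes most like Nptx1 in PV-titled libraries, 1 is not reported here. Alternatives were DESeq2 1.42.0, other scalings, no filter and subsets of libraries.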

Additional observations from a re-analysis of the deposited data

Results flagged for a closer look

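In 72 groups of 1 gene, prefix, time and sex with 4 or 5 libraries each, 5 held a library far from the others by Dixon's criterion, where chance alone flags about 1 in 20, or 3.6. None of the 5 is a library that stands apart.

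Nptx1 was low in 3 of them. Replicate 1 of the PV-titled ZT6 females had 46.7 CPM, with the other 4 between 69.7 and 78.4 CPM. Replicate 1 of the C-titled ZT18 females had 317.2 CPM, with the others between 493 and 546 CPM. Replicate 5 of the C-titled ZT22 females had 362 CPM, with the others between 481 and 525 CPM.

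Nptx2 was high in the other 2. Replicate 5 of the PV-titled ZT14 females had 14.2 CPM, with the others between 6.61 and 7.48 CPM. Replicate 2 of the C-titled ZT22 males had 78.2 CPM, with the others between 37.5 and 47.2 CPM.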

How the results depend on the processing

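Under every alternative run, each prefix difference of the 3 genes kept its direction and moved by less than the SD between libraries. By prefix, Nptx1 lay between -1.71 and -1.42, Nptx2 between -1.84 and -1.57 and Nptxr between -1.61 and -1.15. Each amplitude also moved by less than that SD. For amplitudes this bound says little, since the SD (0.37 to 0.69) was clearly exceeded only by the amplitude of Nptx1 in PV-titled libraries. In C-titled libraries the amplitude lay between 0.23 and 0.55 for Nptx1 and between 0.06 and 0.26 for Nptxr. The amplitude difference, PV-titled minus C-titled, lay between 0.05 and 0.44 for Nptx1, but changed sign for Nptx2 (-0.04 to 0.24) and Nptxr (-0.17 to 0.11). With library totals as the scaling, the median log2 difference of all genes was 0.21, against 0.01, and the calls split into 6972 higher and 4324 lower, against 5785 and 5634. Relative to that median Nptx1 stood at -1.63, against -1.62. Counts of genes are given as percent of those tested. Rhythmic in PV-titled libraries were 3.1%, and 0.153% in the first range, 0.307% in the second, 0.997% in females, 0.0613% in males, 1.196% with time as a factor, and 1.19% to 2.01% without 1 replicate number. In C-titled libraries it was 27%, and 2.90%, 10.2%, 2.07%, 3.63%, 10.03%, and 13.8% to 26.3% in the same order. Each of the subsets holds fewer libraries. Rhythms differed between prefixes for 0.559%, and for 0.283% with library totals, 0.138% without the libraries that stand apart and 0.023% to 0.789% without 1 replicate number. Sex differences were called for 0.0307% in PV-titled libraries (0.0153% in the first range; 0.023% to 0.0383% without 1 replicate number) and for 0.184% in C-titled libraries (0.698% without the libraries that stand apart, 0.0537% and 0.0307% in the ranges, 0.0614% to 0.177% without 1 replicate number). The cause of these shifts was not tested. Small log2 sex differences changed sign, none of them past the threshold: Nptx1 in PV-titled libraries (-0.0036 in the second range; -0.0372 to 0.0648 without 1 replicate number), Nptx2 there (-0.247 to 0.0463), and in C-titled libraries Nptx2 (-0.0166 to 0.132) and Nptxr (-0.0129 in the first range). Replicate numbers were given in accession order, so they name libraries and were not used as pairs. With a replicate block 0.153% of genes differed in rhythm between prefixes, and no other count moved by over 1.5 times. With the title digit in place of the range, a fit added after the data were seen, 0.184% differed in rhythm between prefixes and 0.00766% in rhythm between the sexes of PV-titled libraries, against 0%, and no other count moved so far.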
